A study of Mus musculus with 8 samples.

Results

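Brown adipocytes and their beige counterparts burn fat for heat, and this account follows 10 genes of that programme through the formation of mouse adipose tissue. The genes are Ucp1, Cidea, Cox7a1, Cox8b, Cpt1b, Fabp3, Elovl3 and Dio2, called effectors here, and the transcriptional coactivators Ppargc1a and Ppargc1b. They were chosen by name, with every probe that carries their symbol, and with the earlier pattern of these arrays known: effectors highest at P5 and P12, coactivators highest at e18.5, and signal shared with muscle at e15.5 and P0. The 10 genes have 11 probes among the 23978 probes with a gene symbol, which name 16593 genes. Of the 10 genes, 8 reached 7.5 on the log2 scale on at least 2 of the 8 arrays and were among the 7446 features tested. Elovl3 and Dio2 did not.

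C57BL/6 mice gave developing white adipose tissue daily over the embryonic stages e15.5 to e18.5 and after birth at P0, P2, P5 and P12, which makes 4 stages in each period, with no other genotype or treatment in the labels. Each stage was 1 pool on 1 Illumina MouseRef-8 array, so no stage has a replicate. One label gives at least 3 embryos to a pool and another gives 4, and the depot is not stated. In such bulk RNA, fewer cells of a type and less RNA per cell cannot be told apart.

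In a brown adipocyte, noradrenaline acting through cyclic AMP starts the breakdown of stored triglyceride and raises transcription of the thermogenic genes. UCP1 lets protons back across the inner mitochondrial membrane without making ATP, so that the respiratory chain, fed by fatty acid oxidation, releases heat. PGC-1alpha and PGC-1beta, the products of Ppargc1a and Ppargc1b, bind nuclear receptors and raise transcription of mitochondrial genes, Ucp1 among the targets of PGC-1alpha. Muscle and heart share several of the effectors, since they too oxidise fatty acids at a high rate.

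The cyclic AMP and nuclear receptor inputs act on promoter and enhancer DNA, so the promoter letters of 4 genes with differing profiles are shown. They are Ucp1, bright from P5, Cox8b, near the floor only at e16.5, Ppargc1a, highest at e18.5, and Dio2, near the floor at every stage. RefSeq gave a start site window for 6 of the 10 genes on GRCm38.p6. Each line holds the 250 bases before the start site, 5′ to 3′ on the gene's strand, and capitals mark AGGTCA, the core motif of nuclear receptors, and TGACG, the core of the cyclic AMP response element, on either strand. The Ucp1 stretch is chr8:83290098-83290347 on the plus strand. Those on the minus strand are chr7:140900447-140900696 for Cox8b, chr5:51567726-51567975 for Ppargc1a and chr12:90739039-90739288 for Dio2.
Ucp1: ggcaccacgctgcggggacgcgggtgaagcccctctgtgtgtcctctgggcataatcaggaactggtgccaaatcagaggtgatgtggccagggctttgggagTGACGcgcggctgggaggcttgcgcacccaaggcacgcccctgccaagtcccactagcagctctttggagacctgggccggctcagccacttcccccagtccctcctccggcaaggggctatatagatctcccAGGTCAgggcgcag
Cox8b: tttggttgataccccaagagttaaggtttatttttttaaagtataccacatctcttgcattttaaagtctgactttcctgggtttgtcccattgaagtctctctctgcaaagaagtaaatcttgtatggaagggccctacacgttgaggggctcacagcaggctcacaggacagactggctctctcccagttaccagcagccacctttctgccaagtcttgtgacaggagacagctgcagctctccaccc
Ppargc1a: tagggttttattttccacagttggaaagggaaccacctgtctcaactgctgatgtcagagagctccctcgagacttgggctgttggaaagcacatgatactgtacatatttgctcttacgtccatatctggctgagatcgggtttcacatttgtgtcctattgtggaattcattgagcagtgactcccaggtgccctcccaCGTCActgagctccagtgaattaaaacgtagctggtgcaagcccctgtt
Dio2: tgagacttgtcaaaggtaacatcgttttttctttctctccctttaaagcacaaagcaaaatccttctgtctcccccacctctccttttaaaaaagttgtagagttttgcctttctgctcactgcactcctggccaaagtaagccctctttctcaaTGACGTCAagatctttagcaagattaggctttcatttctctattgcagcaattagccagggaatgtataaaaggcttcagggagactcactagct

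Counted from the start site, AGGTCA began at -14 in Ucp1 and TGACG at -147. Ppargc1a held TGACG on the opposite strand at -49. Dio2 held the whole palindrome TGACGTCA at -95, in which the 2 strands' matches to TGACG overlap, and TATAAA at -30. The Cox8b stretch held neither core motif, as did that of Cox7a1, and Fabp3 held TGACG at -149. Over all 32851 RefSeq windows of 300 bases, which run 50 bases past the start site, 16.3% held AGGTCA on either strand, 20.8% held TGACG, 1.79% held TGACGTCA and 13.6% held TATAAA. Neither TCAAGGTCA, the element of the oestrogen-related receptors (0.423% of windows), nor 2 copies of AGGTCA spaced by 1 base (0.0396%) occurred in any of the 6 windows. The windows of Ucp1 and Fabp3 were 64.7% and 65% G and C, against 44.7% to 53% in the other 4 and a median of 52.7%. A match describes the letters and is not evidence of binding.

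Values below are log2 intensities as deposited, on which 1 unit is 2-fold. The lowest values lie near 6.7, and anything under 7.5 is called near the floor. Where the lower of 2 levels is near the floor, 7.5 stands in for it and the fold is written as at least that size. Probes differ in brightness, so each gene is compared only with itself across stages.

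The pools were not alike in their tissue markers. The mean level of 21 tested skeletal muscle markers was 12.39, 8.76, 8.51 and 7.57 from e15.5 to e18.5 and 11.04, 8.19, 7.52 and 7.53 from P0 to P12. The e15.5 and P0 pools thus stood far above their neighbours, with 20 and 21 of the 21 markers at 7.5 or more, against 4 of 21 at P5 and at P12, where single markers ran from 6.76 to 11.98 and from 6.78 to 12.07. The 10 tested epidermal markers were also high in those pools, at 11.67 and 10.53 on average, against 7.32 at P5 and 7.22 at P12. The 10 tested adipocyte markers averaged 8.23, 9.29, 10.86 and 11.13 from e15.5 to e18.5 and 11.38, 11.81, 11.91 and 11.82 from P0 to P12. These 10 had passed the filter through the stages where they are high. Of the 13 adipocyte markers with a probe, Fabp4, Cd36 and Retn had not passed, and Cd36 read 6.91 at most. The 7 tested lymphocyte markers averaged 10.30 at P12, against 7.92 at P5 and 8.79 at P2. Muscle, epidermal and adipocyte means enter fits given below as terms; the part of lymphocytes was not tested.

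Ucp1, the uncoupling protein that defines thermogenic fat cells, was near the floor from e15.5 to e17.5 and bright from P5. Probe ILMN_2994373 read 6.81, 6.78, 6.78 and 8.39 in the embryonic pools, youngest first, and 7.38, 7.61, 12.95 and 11.95 at P0, P2, P5 and P12. Only e18.5 among the embryonic pools stood above 7.5, at least 1.85-fold above e17.5, and P0 was again near the floor. The P5 level was 40.6-fold that of P2, and the P12 level was 11.8-fold that of e18.5. The change thus fell almost wholly between P2 and P5, with the P12 value 1 log2 unit below P5.

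Cidea encodes a lipid droplet protein that marks brown and beige adipocytes in mice. Its probe, ILMN_1215446, gave 7.80, 6.94, 8.23 and 11.13 in the 4 embryonic pools and 11.08, 9.50, 12.88 and 13.37 in the 4 postnatal pools, in stage order. Cidea was higher after 2 steps, first to e18.5, 7.46-fold above e17.5, and then to P5, 10.4-fold above P2, with a dip at P2 between them. At P12 it was at least 58.4-fold above e16.5, its lowest stage.

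Cox7a1 and Cox8b encode the forms of cytochrome c oxidase subunits VIIa and VIII that heart, skeletal muscle and brown fat use. Cox7a1 (ILMN_1240857) read 8.18, 7.66, 10.32 and 11.82 at e15.5 to e18.5 and 9.22, 10.28, 13.10 and 13.44 at P0 to P12. Cox8b (ILMN_2727520) read 10.50, 7.37, 10.62 and 12.47 and then 12.02, 11.61, 13.26 and 13.85 over the same stages. Both were lowest at e16.5 and highest at P12, 54.8-fold higher for Cox7a1 and at least 81.3-fold higher for Cox8b. They parted where muscle markers were high. At P0 Cox7a1 was low, with e18.5 6.04-fold above it, while Cox8b at P0 lay within 0.02 of the mean of e18.5 and P2. At e15.5 Cox8b was at least 8.0-fold above e16.5, while Cox7a1 was 1.43-fold above it.

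The 2 genes of fatty acid handling differed from each other. Cpt1b encodes the carnitine palmitoyltransferase of the outer mitochondrial membrane in muscle and brown fat, which admits long-chain fatty acids to oxidation. Its brighter probe, ILMN_1227666, read 8.68, 7.22, 7.88 and 9.40 at e15.5 to e18.5 and 9.24, 8.77, 10.74 and 11.03 at P0 to P12. The dimmer probe, ILMN_2709240, read 7.17, 6.90, 7.16, 7.77, 7.69, 7.48, 8.50 and 8.82 in stage order, and ranked the 8 pools in the same order (r = 0.97 over 8 arrays). The P5 level was 3.90-fold that of P2 by the brighter probe and at least 2.01-fold by the dimmer one.

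Fabp3, the fatty acid-binding protein of heart, muscle and brown fat, had the profile least like the other effectors. Its probe, ILMN_2887630, read 9.56, 7.35, 7.06 and 6.87 over the embryonic stages, youngest first, and 9.55, 7.25, 10.80 and 12.95 at P0, P2, P5 and P12. It was near the floor at e16.5, e17.5, e18.5 and P2, and well above it in the e15.5 and P0 pools, where muscle and epidermal markers were high. At P5 and P12, where the muscle marker mean was at its lowest, Fabp3 was at its highest. P12 was 4.41-fold above P5, and Fabp3 alone among the 8 tested genes was 2-fold or more higher in that step.

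Elovl3, a fatty acid elongase of brown fat and skin, and Dio2, the deiodinase that makes active thyroid hormone in brown fat, gave little signal. Elovl3 (ILMN_2682207) lay between 6.82 and 7.05 except at P0, where it read 7.70. Dio2 (ILMN_2766037) lay between 6.76 and 6.84 on all 8 arrays. Neither probe shows that the transcript is absent, since a probe near the floor gives only a bound.

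**Figure D1:**
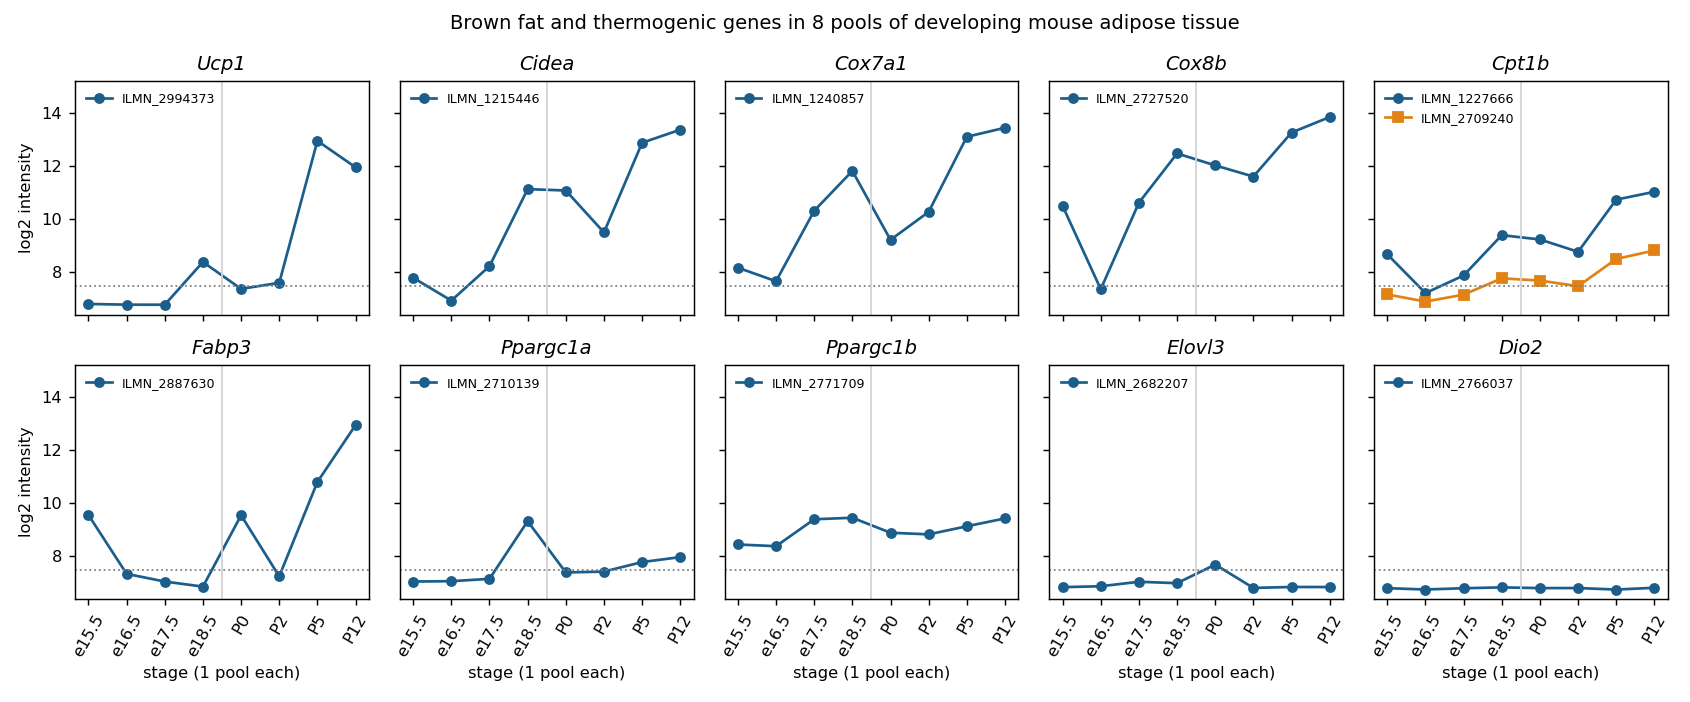
Log2 intensity (y axis) of the 11 probes of the 10 genes at each of the 8 stages (x axis), 1 pool per point; the dotted line marks 7.5 and the vertical line birth. Ucp1 reads 12.95 at P5 and 7.61 at P2, Fabp3 has separate peaks at e15.5 and P0, and Ppargc1a reads 9.33 at e18.5 and at most 7.98 elsewhere.

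The coactivators had another profile. Ppargc1a (ILMN_2710139) read 7.06, 7.07, 7.16 and 9.33 at e15.5 to e18.5 and 7.40, 7.43, 7.79 and 7.98 at P0 to P12. Its e18.5 level was at least 3.55-fold that of e17.5 and of P0, and only P5 and P12 among the other pools reached 7.5. Ppargc1b (ILMN_2771709) read 8.45, 8.39, 9.40 and 9.46 and then 8.89, 8.83, 9.14 and 9.43. Its largest step was from e16.5 to e17.5, and its values at e17.5, e18.5 and P12 lay within 0.06 of each other, so its highest stage is not set apart from the other two.

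In a line fitted to every feature, 5 of the 8 tested genes rose along the series and 0 fell. The effectors were chosen with their high P5 and P12 levels on these arrays known, so their slopes and p-values describe that pattern and give it no independent support. The fit was a straight line over stage order 1 to 8, with 6 residual degrees of freedom, and a change that does not follow a line counts as error in it. Over all 7446 features 18.3% rose and 20.7% fell, and the median slope of the 8 genes was 0.59 log2 per stage, against -0.0040 over all features. Cidea rose by 0.86 per stage (SE 0.16, limma adjusted p = 0.00457), Ucp1 by 0.81 (SE 0.21, limma adjusted p = 0.0161) and Cox7a1 by 0.73 (SE 0.17, limma adjusted p = 0.0115). Cox8b rose by 0.66 (SE 0.17, limma adjusted p = 0.0188) and Cpt1b by 0.44 (SE 0.11, limma adjusted p = 0.0141). Fabp3 had a slope of 0.53 (SE 0.25) and did not pass (limma adjusted p = 0.126). Ppargc1a, with 0.11 (SE 0.10), and Ppargc1b, with 0.10 (SE 0.05), did not pass either (limma adjusted p = 0.425 and 0.158).

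Without the P12 array only Cidea of the 8 passed, although the slopes were close to those above: 0.74 for Ucp1, 0.68 for Cox7a1, 0.65 for Cox8b and 0.38 for Cpt1b. Without both P5 and P12, a setting chosen after seeing the data, none passed, with slopes of 0.21 for Ucp1 and 0.23 for Cpt1b, and Fabp3's slope turned to -0.15. Without e15.5 Fabp3 passed (0.88, limma adjusted p = 0.0277), and without e18.5 Ppargc1a did (0.13, limma adjusted p = 0.00371). With the epidermal marker mean as a second term 2 of the 8 passed, Cidea and Cpt1b, while the limma adjusted p of Ucp1 was 0.0968, of Cox7a1 0.0768 and of Cox8b 0.0709. With the adipocyte marker mean as that term none of the 8 passed and only 49 features rose, with slopes of 0.62 to 1.43 in the 5 genes that passed without it.

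Muscle signal differed between the pools, so the line was fitted again with the muscle marker mean as a second term. Of the 8 genes, 3 rose and 0 fell, against 10.3% and 14.4% of all features. Cidea rose by 0.93 per stage (SE 0.20, limma adjusted p = 0.0190), Cox8b by 0.78 (SE 0.22, limma adjusted p = 0.0385) and Cpt1b by 0.52 (SE 0.13, limma adjusted p = 0.0296). Fabp3's slope was 0.84 (SE 0.27) beside 0.53 without the term, and did not pass (limma adjusted p = 0.0579). Ucp1 had 0.75 (SE 0.27, limma adjusted p = 0.0804) and Cox7a1 0.55 (SE 0.20, limma adjusted p = 0.0772), both short of the threshold, and Ppargc1a and Ppargc1b had 0.01 and 0.05. The slopes of the 8 genes thus moved by 0.32 at most, Fabp3's the most, while the residual degrees of freedom fell by 1. This fit was the least stable: without any 1 of the e16.5, e17.5 or P12 arrays none of the 8 passed, without P0 or without P5 1 did, without P2 5 did and without e15.5 6 did, and without both e15.5 and P0 none did.

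**Figure D2:**
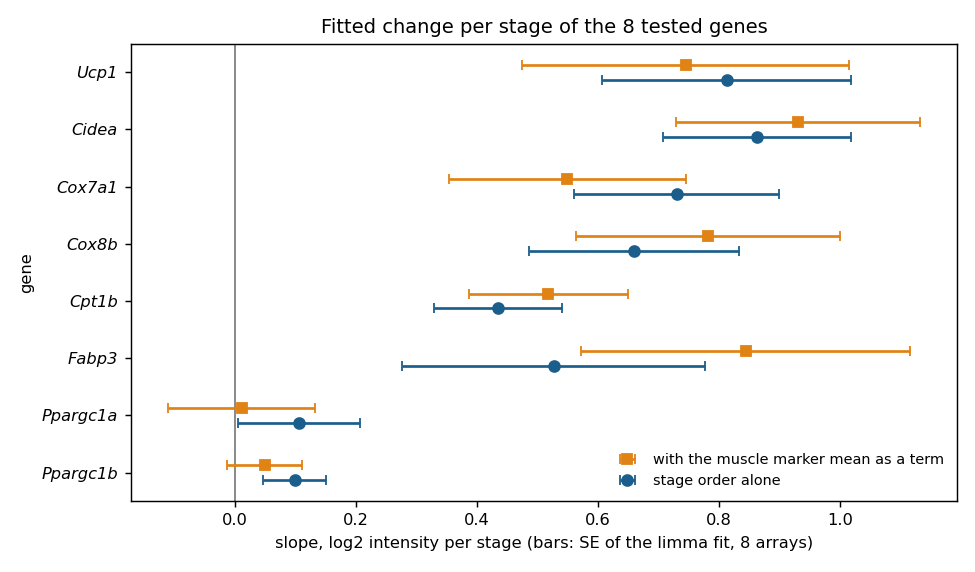
Fitted slope in log2 intensity per stage (x axis) of the 8 tested genes (rows), with the muscle marker mean as a term (squares) and from stage order alone (circles); bars are the SE of the limma fit over 8 arrays. Fabp3 has 0.84 with the term and 0.53 without it, and both coactivators lie close to 0 in either fit.

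The labels also divide the stages at birth. Mean levels were 11.71 ± 1.77 in postnatal and 8.52 ± 1.82 in embryonic pools for Cidea (SD, n = 4 each), a difference of 3.18 (limma adjusted p = 0.0998). For Ucp1 they were 9.97 ± 2.89 in postnatal and 7.19 ± 0.80 in embryonic pools, a difference of 2.78 (limma adjusted p = 0.172). Of the 8 genes, 0 passed in this limma fit, against 0.0134% of all features higher, which is 1 feature. At an unadjusted p under 0.05, 3 of the 8 were higher after birth, namely Cidea, Cox8b and Cpt1b, against 14.5% of all features (1081). Ppargc1a averaged 7.65 in both postnatal and embryonic pools, which hides its e18.5 value. Without the e18.5 array 3 of the 8 passed, Cidea, Cox8b and Ppargc1a, as did 805 features higher after birth.

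Between neighbouring stages there is no replicate check, and differences of 2-fold or more were counted among features at 7.5 or more on at least 1 of the 2 arrays. The patterns named at the opening were known when the genes were chosen, so these counts describe them without independent support. At e16.5 Cox8b, Cpt1b and Fabp3 were lower than at e15.5, 3 of the 6 genes measured, against 3.70% of features. At e17.5 4 of 5 were higher than at e16.5 (Cidea, Cox7a1, Cox8b and Ppargc1b), against 2.41%. At e18.5 6 of 7 were higher than at e17.5, all but Ppargc1b, against 2.14%. This embryonic step thus held Ucp1 and Ppargc1a together with Cidea, Cox7a1, Cox8b and Cpt1b.

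After birth the genes parted again. At P0 Ucp1, Cox7a1 and Ppargc1a were lower than at e18.5, 3 of 8, against 1.75%, and Fabp3 was higher. At P2 Cidea and Fabp3 were lower than at P0, 2 of 7, against 2.05%, and Cox7a1 was higher. At P5 6 of 8 were higher than at P2, all the tested effectors and neither coactivator, against 1.60%. That split was known when the genes were chosen and is given as a description. At P12 Fabp3 was higher than at P5, 1 of 8, against 1.45%. From P2 to P5 the difference was 40.6-fold for Ucp1, 10.4-fold for Cidea, at least 9.87-fold for Fabp3, 7.09-fold for Cox7a1, 3.90-fold for Cpt1b and 3.15-fold for Cox8b. The adipocyte marker mean differed by 0.10 over that step, with single markers from -2.31 (Cidec) to 1.03 (Lep). The part of adipocyte number in these differences was not tested.

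As patterns over the 8 stages, P5 and P12 both lay above every earlier pool in the 6 tested effectors and in 16.6% of all features. The highest level was at e18.5 in the 2 coactivators and in 9.94% of features. Both patterns helped to choose the genes and are given as descriptions. A level at e18.5 above e17.5, P0 and P2 was found in 7 of the 8 and in 20.8% of features. For the 2 coactivators it follows from the pattern known at the choice, so this count too is a description. The exception, Fabp3, was at its lowest at e18.5, at 6.87. Relative to the higher of e17.5 and P0, e18.5 was at least 3.55-fold for Ppargc1a, 2.83-fold for Cox7a1 and at least 1.85-fold for Ucp1. It was 1.37-fold for Cox8b, 1.12-fold for Cpt1b, and 1.04-fold for Cidea and for Ppargc1b. With 1 pool per stage, e18.5 is not set apart from the higher neighbour in Cpt1b, Cidea and Ppargc1b. The mean of e17.5 and P0 also takes in the lower neighbour, so differences from it are larger. As log2 differences of e18.5 from that mean, Cox7a1 stood 2.05 higher, Cidea 1.48, Cox8b 1.15, Cpt1b 0.84 and Ppargc1b 0.31. Ppargc1a stood at least 1.83 higher and Ucp1 at least 0.89, with both neighbours near the floor.

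The e15.5 and P0 pools, rich in both muscle and epidermal markers, were compared with their neighbours. Muscle and skin cannot be told apart here, and this pattern too was known when the genes were chosen. It asked for a level at least 1 log2 unit above e16.5 at e15.5, and above both e18.5 and P2 at P0. It was met by 1 of the 8, Fabp3, and by 1.15% of features, against 19 of 21 muscle markers and 8 of 10 epidermal markers. The log2 differences that follow have levels under 7.5 set to 7.5, so those that touch the floor are lower bounds of size. Fabp3 stood at least 2.06 above e16.5 at e15.5 and at least 2.05 above the mean of e18.5 and P2 at P0. On the same scale the muscle markers averaged 3.54 and 2.94 and the epidermal markers 2.26 and 2.20. Cox8b and Cpt1b stood at least 3.00 and 1.18 higher at e15.5, with differences of -0.02 and 0.15 at P0. Cidea was higher by at least 0.30 at e15.5 and by 0.76 at P0. Ucp1 and Ppargc1a were near the floor at both e15.5 and e16.5 and Ppargc1b differed by 0.06. At P0 the differences were -0.25 for Ppargc1b, -0.50 or beyond for Ucp1 and -0.91 or beyond for Ppargc1a. Cox7a1, though a muscle isoform too, differed by 0.51 at e15.5 and by -1.82 at P0. Over the 8 pools the correlation with the muscle mean was 0.01 for Fabp3 and between -0.33 and -0.72 for the other 7.

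**Figure D3:**
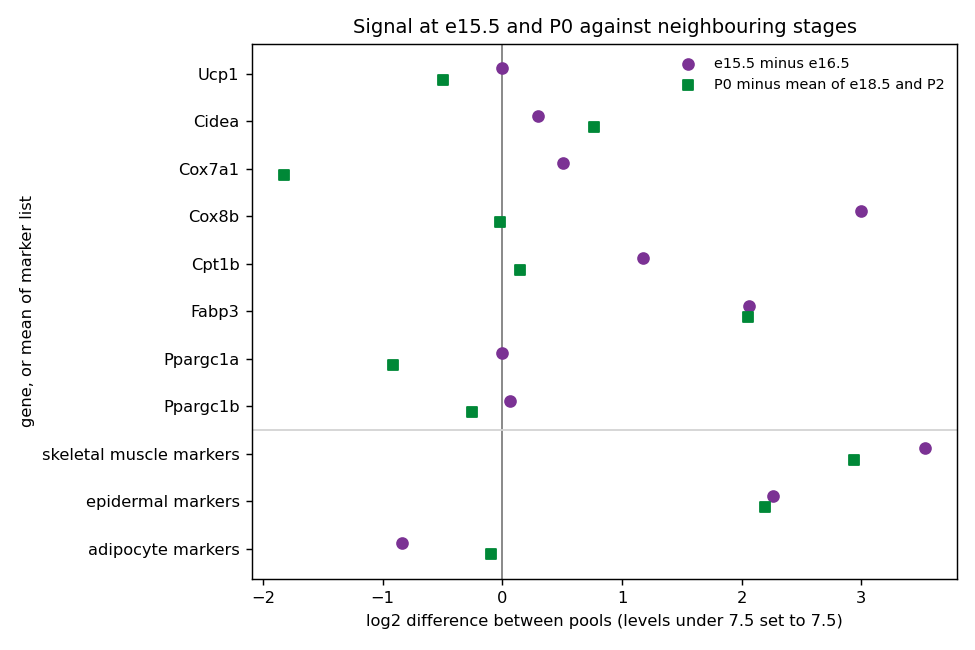
Log2 difference between pools with levels under 7.5 set to 7.5 (x axis) for the 8 tested genes and the means of 21 muscle, 10 epidermal and 10 adipocyte markers (rows), at e15.5 minus e16.5 (circles) and at P0 minus the mean of e18.5 and P2 (squares). Fabp3 is above 2 on both, as are the muscle and epidermal means, Cox8b and Cpt1b are above 1 on the first alone, and the adipocyte mean differs by -0.84 and -0.10.

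Related isoforms give a further view of the same pools. Of 14 tested members of this list, 5 rose and 0 fell, against 18.3% and 20.7% of all features. They were Cpt2, the inner membrane partner of Cpt1b, by 0.32 per stage, Ucp3, a muscle and brown fat relative of Ucp1, by 0.20, and the widely expressed oxidase subunits Cox4i1, Cox6a1 and Cox8a by 0.19, 0.19 and 0.17. The list's median slope was 0.05. Ucp3 was near the floor up to P2 and read 8.02 at P5 and 8.29 at P12. Cox8a, the form of subunit VIII found in most tissues, lay between 12.29 and 13.64, without the dip of Cox8b at e16.5. Cox7a2, the matching form of subunit VIIa, lay between 7.58 and 7.95.

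The muscle subunit Cox6a2, one of the 21 muscle markers, read 12.53, 8.05, 7.85 and 6.94 at e15.5 to e18.5 and 10.88, 7.80, 6.85 and 7.09 at P0 to P12. It was thus near the floor at e18.5, P5 and P12, the pools in which Cox7a1 and Cox8b were highest. Cidec, a lipid droplet protein of white adipocytes related to Cidea, read 11.91 at P2 and was lower at P5 and P12, at 9.60 and 9.26, while Cidea was higher there. P2 was 4.97-fold above P5 and 6.26-fold above P12 for Cidec. Cidec is also counted among the adipocyte markers and among the other marker genes of brown and beige fat. The Cpt1a, Fabp4 and Cideb probes stayed near the floor at every stage, none above 7.23, so those relatives of Cpt1b, Fabp3 and Cidea could not be followed.

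**Figure D4:**
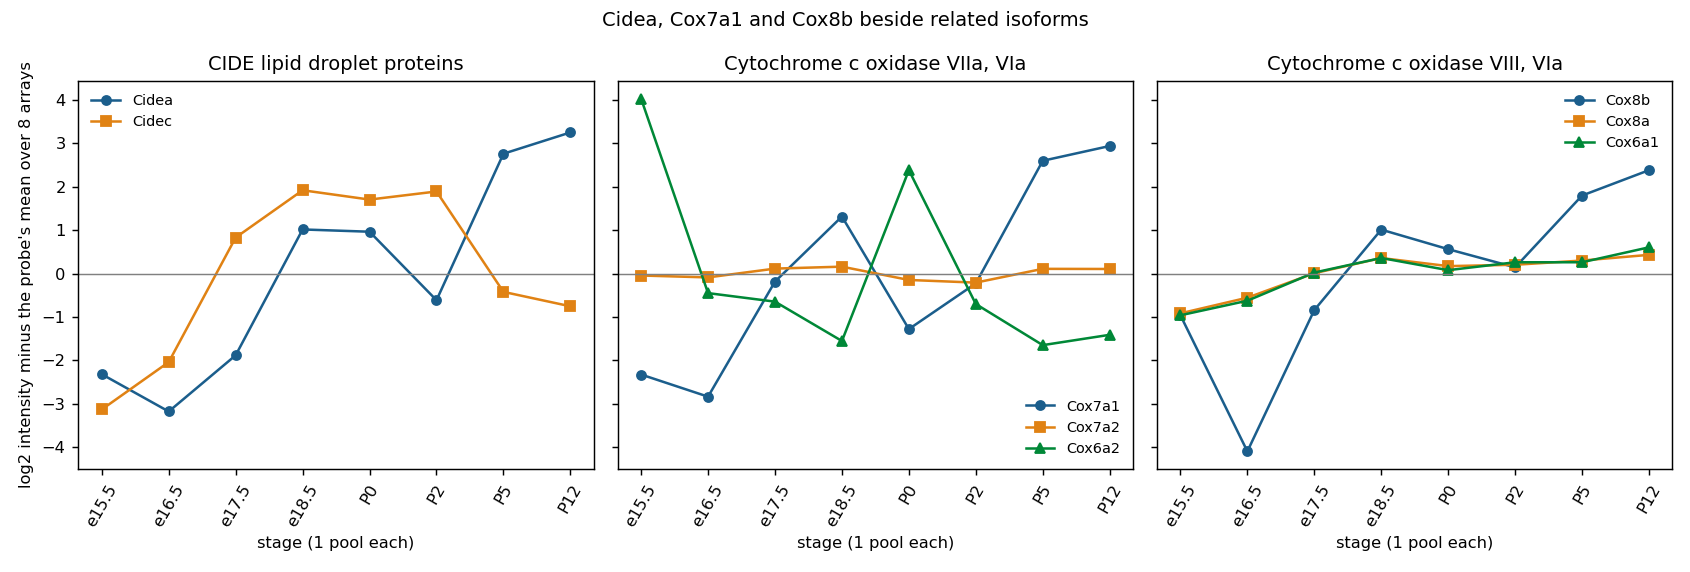
Log2 intensity minus the probe's mean over the 8 arrays (y axis) at each stage (x axis, 1 pool per point) for Cidea, Cox7a1 and Cox8b beside related isoforms. Cidec is lower at P5 and P12 than at P2 while Cidea is higher, and Cox6a2 is high at e15.5 and P0 where Cox7a1 is low.

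Of 26 tested other marker genes of brown and beige fat, 15 rose and 0 fell, against 18.3% and 20.7% of all features, with a median slope of 0.22. In 15 of the 26, against 16.6% of all features, P5 and P12 lay above every earlier pool. The largest rises were those of Pdk4, a kinase that spares glucose by inhibiting pyruvate dehydrogenase (0.67 per stage, SE 0.12, limma adjusted p = 0.00393), Chchd10, a mitochondrial intermembrane protein (0.52), and Slc25a20, the carnitine-acylcarnitine carrier (0.46). Next were Gpd2, the mitochondrial glycerol phosphate dehydrogenase (0.44), Nrg4, a growth factor secreted by brown fat (0.43), and Plin5, a droplet protein of oxidative tissues (0.42, SE 0.03, limma adjusted p = 0.000354). Beside the muscle term, 11 of the 26 rose, against 10.3% of all features, in the fit described above as the least stable. Pdk4 read 10.23 at e18.5, 9.34 at P2, 11.26 at P5 and 12.41 at P12, with a high point at e18.5 as in Ucp1, while Plin5 and Nrg4 were at each stage from e17.5 on above the stage before.

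Some regulators of the programme rose and some fell, as among all features. Of 21 tested, 6 rose and 3 fell, against 18.3% and 20.7% of all features, with a median slope of 0.01. Those that rose were Sirt3, the mitochondrial deacetylase (0.24 per stage), Cebpb, a partner of Prdm16 (0.18), Esrra, an oestrogen-related receptor through which PGC-1alpha acts (0.17), and Rb1, Rxra and Rxrg (0.11 each). Bmp7, a signal that promotes brown fat formation, fell by 0.14 per stage, Nrf1, a factor for nuclear genes of mitochondria, by 0.09 and Zfp516, a zinc finger factor of brown fat, by 0.06. Several regulators that define brown fat gave no usable signal: Prdm16 lay between 6.77 and 6.83, Zic1 between 6.78 and 7.06 and Lhx8 between 6.96 and 7.20. Ebf2, which marks brown preadipocytes, was measured at 8.42 to 9.32, with a slope of -0.03 (limma adjusted p = 0.623).

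At e18.5, where Ppargc1a was highest, 3 of the 21 regulators were also highest: Pparg, Irf4 and Ncoa1. Pparg read 12.11 there and 11.93 at P2, so with 1 pool per stage its highest stage is not set apart. Irf4, the factor that fasting and cyclic AMP induce in fat and that works with PGC-1alpha on Ucp1, read 7.60 at e17.5, 11.58 at e18.5 and 7.54 at P0, 15.8-fold above the higher of those neighbours. Of the 18 tested genes of adrenergic and lipolytic input, 3 were highest at e18.5, namely Pde4d, Crem and Abhd5. Abhd5, with 10.73 at e17.5 and 10.84 at e18.5, is not set apart there either. Pde4d, a cyclic AMP phosphodiesterase, read 9.03 there, 2.58-fold above its higher neighbour, and Crem, a cyclic AMP-responsive factor, 8.61, at least 2.17-fold above. Both shares compare with 9.94% of features. Named by their values and position rather than by slope, these genes are descriptions of 1 pool.

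Along the whole series, 6 of the 18 adrenergic and lipolytic genes rose and 1 fell, with a median slope of 0.05, where 18.3% and 20.7% of all features did. The lipases Pnpla2, Mgll, Lipe and Lpl rose by 0.80, 0.63, 0.31 and 0.31 per stage, the droplet coat Plin1 by 0.33 and Atf2 by 0.08, and Prkar1a, a regulatory subunit of protein kinase A, fell by 0.06. The beta-adrenergic receptors were not analysed here. Pnpla2 and Plin1 are adipocyte genes in general, and all but 1 of the 10 adipocyte markers rose. Of the 10 tested genes of creatine and calcium cycling, an alternative source of heat, 0 passed limma's trend test in either direction. Of all features 18.3% rose and 20.7% fell in it. At an unadjusted p under 0.05, 1 of the 10 had a negative slope, Sln, as did 1958 of the 7446 features. The pattern of e15.5 and P0 described for Fabp3 was met by 5 of the 10, against 1.15% of features. Atp2a1, 1 of those 5, is also counted among the muscle markers. Of the 12 tested white fat markers 4 rose and 0 fell, again beside 18.3% and 20.7% of features, with leptin, Lep, at 0.98 per stage, Nnat at 0.79 and Slc7a10 at 0.30, beside Rb1.

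**Figure D5:**
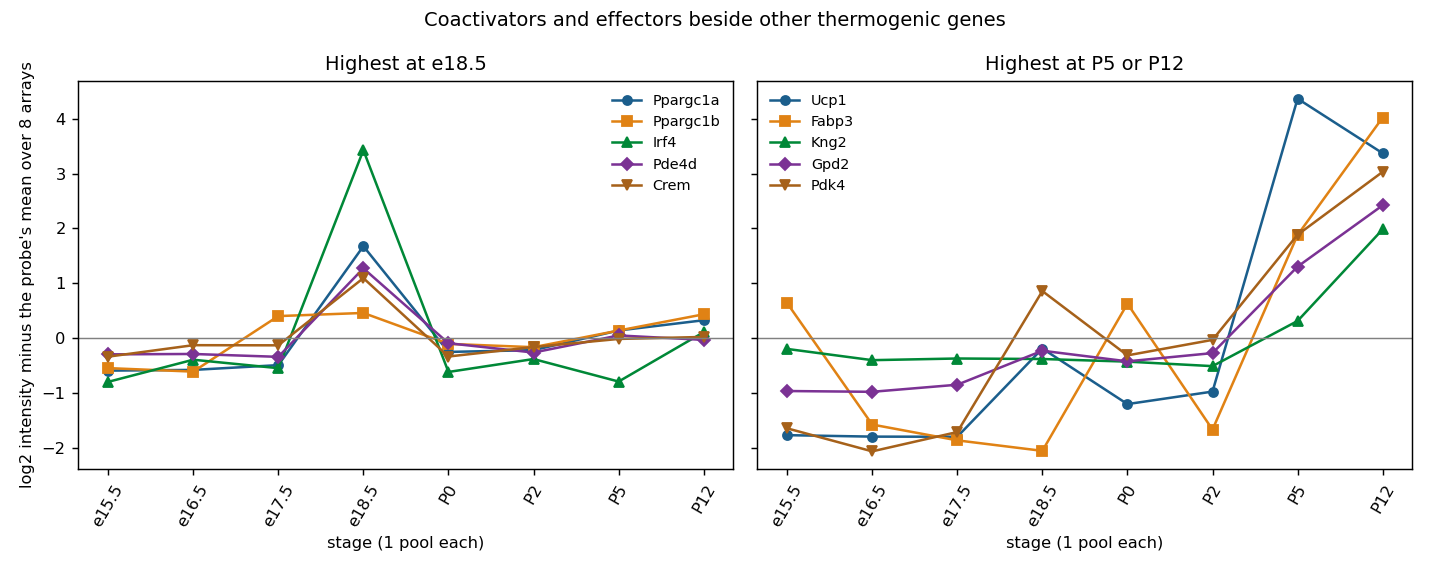
Log2 intensity minus the probe's mean over the 8 arrays (y axis) at each stage (x axis, 1 pool per point), for genes highest at e18.5 (left) and at P5 or P12 (right). Irf4, Ppargc1a, Pde4d and Crem peak in the e18.5 pool, where Ucp1 and Pdk4 have a smaller high point before their late rise.

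As a description over 8 arrays that share their pools, correlations among the 6 tested effectors ran from 0.51 (Cox7a1 with Fabp3) to 0.96 (Cidea with Cpt1b). Those of an effector with a coactivator ran from -0.02 (Fabp3 with Ppargc1a) to 0.83 (Cox7a1 with Ppargc1b), so the ranges overlap. Among all other tested named genes the 5 most like Ucp1 were H2-Q8, Gfod1, Dlc1, Lctl and Adat2, with r of 0.98 to 0.99 over 8 arrays. Their ranges were much smaller than that of Ucp1: H2-Q8 read 8.61 at P5 and at P12, against 7.24 at P2. Closest to Ppargc1a were D16Ertd472e, Ltb4r1, Pde4d, Tnip2 and Atg101, with r of 0.97 to 0.98. Atg101, an autophagy factor, read 11.23 at e18.5, against 9.43 at e17.5. Closest to Fabp3 were Kpna1, Itprid2, Polr2g, Top1mt and Gstt3, with r of 0.95 to 0.98.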

How the data were processed

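Total RNA of 8 pools, 1 per stage, was labelled and read on Illumina MouseRef-8 arrays with the BeadStudio software (per the labels' protocols). As deposited, the values are the authors' processed log2 intensities; the base was read from their range, 6.66 to 15.10. Sorted values of the 8 columns were equal to within 0.005, so changes in total signal are hidden. The background and normalization steps, not given in the sources used here, are unknown. A second deposited table was not used, since its 16 columns of signals and detection values match no sample label.

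Probes were named from the platform annotation (23978 with 1 symbol, 0 with several, 1719 unnamed). The probe with the highest mean stood for a gene, and features at 7.5 on at least 2 arrays were tested (7446, of which 512 unnamed). On each array 8318 to 8324 probes reached 7.5; the number of arrays limits the precision. The tests were two-sided limma 3.58.1 fits in R 4.3.3 with Benjamini-Hochberg adjustment over all 7446 features at 0.05; scripts were tested on simulated data. With 1 pool per stage, p-values measure the scatter of single pools around a fit.

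The genes and lists were chosen with earlier results of these data known. By rule, all 10 genes were named, up to 6 tested genes of each list by size of slope among those that passed, defining members and isoforms, and 5 genes most like Ucp1, Ppargc1a and Fabp3. Irf4, Pparg, Ncoa1, Pde4d, Crem, Abhd5 and Atg101 at e18.5 were named after their values were seen. Alternatives changed the filter, the probe rule, the variance model, array weights, the time scale, the marker term and the arrays used. Figures were drawn with matplotlib 3.10.9.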

Additional observations from a re-analysis of the deposited data

Results flagged for a closer look

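Of the 22 groups of 4 arrays examined, 11 probes in each period, 3 held an array that stood apart from the other 3 by Dixon's gap criterion. The criterion's nominal rate by chance is about 1 group in 20. In all 3 flagged groups the other arrays lay near the floor with little spread, so that rate is no measure here. The e18.5 level of Ppargc1a was also known when the genes were chosen. Among the embryonic arrays Ucp1 read 8.39 at e18.5, with the next highest at 6.81. In the same array Ppargc1a read 9.33, with the next highest embryonic value at 7.16. Among the postnatal arrays Elovl3 read 7.70 at P0, with the next highest at 6.85. Elovl3 is also expressed in skin, and the epidermal marker mean at P0 was 10.53, against 8.72 at P2; the part of skin in this value was not tested.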

How the results depend on the processing

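Leaving out 1 array at a time, the trend fit called 1 to 6 of the 8 genes as risen and 0 as fallen, with 891 to 1458 features risen and 999 to 1600 fallen; the fewest came without P12. The fit with the muscle mean called 0 to 6 of the 8 as risen and 0 as fallen, with 120 to 861 features risen and 199 to 1265 fallen, fewest without e16.5. The postnatal comparison called 0 to 3 of the 8 higher and 0 lower, with 0 to 805 features higher and 0 to 1075 lower, most without e18.5. No paired analysis was possible because no stage has a second sample.

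For the trend, leaving out P5 and P12, added after seeing the data, gave 563 features risen, 529 fallen and 0 of the 8 genes risen, and Fabp3 turned to -0.15. The epidermal mean as a term gave 660, 911 and 2 of 8. The adipocyte mean gave 49, 50 and 0 of 8, with Ppargc1a and Ppargc1b both at -0.064. Days in place of stage order gave 903 risen and 986 fallen, with Fabp3 past the threshold (limma adjusted p = 0.0378) and Cox8b short of it (0.0532). With no filter on level Cox8b's limma adjusted p was 0.0537, beside 0.0159 to 0.0730 when 1 array was left out.

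For the fit with the muscle mean, no filter gave 0 of 8 risen, and array weights gave 5, with Ppargc1b at -0.018. Without e15.5 and P0, 0 features rose, 0 fell and 0 of the 8 rose, with Ppargc1a at -0.32 and Ppargc1b at -0.052. Without P5 and P12, 268 rose, 307 fell and 0 of the 8 rose. Leaving out 1 array moved Ppargc1a between -0.084 and 0.13 and Ppargc1b between -0.033 and 0.090.

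For the postnatal comparison, no filter gave 3 features higher and 1 lower, array weights 734 and 1064 with 2 of the 8 genes higher, and leaving out e15.5 and P0 gave 4 and 2. Ppargc1a was 0.30 and Ppargc1b -0.22 with array weights. Leaving out 1 array moved Ppargc1a between -0.20 and 0.55 and Ppargc1b between -0.029 and 0.33. At a 1.5-fold limit 1 gene, Ucp1, was lower at P12 than at P5, against 0 at 2-fold. The causes of these changes were not tested. Low signal limits Ppargc1a, Elovl3 and Dio2, whose probes lay near the floor in most pools.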

Other observations

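A few listed genes of brown fat reached 7.5 on a single array and were not tested. Ppara, the fatty acid-sensing receptor that brown fat holds at a high level, read 8.11 at P12 and 7.46 at P5, against 6.77 to 7.03 on the other 6 arrays. P2rx5, a purinergic receptor used as a brown fat surface marker, read 7.55 at P12 and at most 7.12 elsewhere. Epsti1, another such marker, read 7.81 at P12 and at most 7.40 elsewhere. In these 3, picked after their values were seen, the single higher value was in the P12 pool. The lymphocyte marker mean was also highest in that pool, at 10.30, and its part was not tested. Other listed genes reached 7.5 elsewhere: Hspb7 at e15.5 alone, at 7.79, and Elovl3 at P0 alone, at 7.70.

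Among tested genes, Kng2, a kininogen, read 7.78 at P5 and 9.45 at P12, against 7.27 or less at every earlier stage, and Rgs7 read 7.79 and 8.52, against 7.09 or less. Slc27a1, a fatty acid transporter, read 9.02 at P5 and 9.16 at P12, against 10.81 at e18.5 and 10.98 at P0, and Agt, the angiotensin precursor, read 7.91 and 8.10, against 10.07 and 9.85. Slc27a1, Agt and Cidec were therefore lower at P5 and P12 than at e18.5 and P0, opposite to Cidea, Cox7a1 and Cox8b. Kng2, Rgs7, Slc27a1 and Agt were picked after their values were seen.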
